A study of Mus musculus with 6 samples.

Results

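Bone morphogenetic proteins (BMPs), their receptors and their secreted antagonists were described in mouse femur 3 weeks after focal radiation. The group was defined by symbol as 10 genes of the 43346 in the deposited count table: the ligands Bmp2, Bmp3, Bmp4, Bmp6 and Bmp7, the receptors Bmpr1a and Bmpr2, and the antagonists Grem1, Nog and Chrdl1. All 10 were found and all 10 passed the filter on low counts. C57BL/6 mice, a common inbred strain, were 4 months old when a single X-ray dose of 24 Gy, given at 6.6 Gy per minute, reached 5 mm of the distal metaphysis of the right femur. Radiated bone was compared with the same piece of the left femur of animals treated this way, which was not radiated, on day 21 (n = 3 libraries each), a day chosen ahead of the bone loss seen on day 28. Animals that received no radiation at all were not analysed here, so the reference is a contralateral bone and any body-wide response is shared by both groups. Each library is RNA of a whole piece of bone with its marrow, after muscle was cut away.

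BMPs are secreted dimers of the transforming growth factor beta superfamily, first known for inducing bone at ectopic sites. A ligand brings together type I receptors such as Bmpr1a and type II receptors such as Bmpr2, which then phosphorylate Smad1, Smad5 and Smad9. These bind Smad4, enter the nucleus and act on genes such as Id1. Noggin, gremlin and chordin-like proteins bind the ligands outside the cell and keep them from their receptors. In bone the balance of ligands and antagonists is known to act on osteoblast formation, on cartilage and on stromal progenitors.

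Total gene counts ran from 34034251 to 48708383 per library. In non-radiated library 2 a single row, AY036118, took 32.9% of the counts, against 0.321% to 5.61% in the other libraries, so the remaining genes were read less deeply there. The defining genes of bone and marrow were present: none of the 10 osteoblast and 10 megakaryocyte markers was at 0 in all libraries. Summed over its list, the level of osteoblast markers was 8853 to 13431 CPM in non-radiated and 6679 to 8656 CPM in radiated libraries (CPM is the count of a gene relative to the depth of its library, with depths adjusted by the trimmed mean of M-values, TMM). Skeletal muscle markers summed to 173.5 to 353.6 CPM in non-radiated libraries and to 785.1, 2557 and 201.8 CPM in radiated bone, so muscle RNA differed between radiated libraries. Where 3 values are given for a group, they are those of libraries 1, 2 and 3 in that order. In bulk RNA of this kind, fewer cells of a type and less RNA per cell cannot be told apart.

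Of the 10 genes, 1 rose and 1 fell: Bmp4 was 1.62-fold higher and Bmp6 was 1.76-fold lower in radiated bone. A call means an adjusted p under 0.05 by edgeR's quasi-likelihood test with Benjamini-Hochberg adjustment over all 18757 genes tested. Over all tested genes 7.8% were called, 4.56% higher and 3.24% lower. The 2 calls among 10 genes are a larger share than that, but the count is too small to be read as a result about the group. Scaling by library totals alone moved the share of higher genes among all calls from 58.5% to 85.4% and the overall median difference from 0.00 to 0.20 on the log2 scale. At an unadjusted p under 0.05 there were 4 of the 10 genes, Bmp4, Bmp6, Bmp3 and Grem1, where 21.5% of all tested genes had such a p. The median difference was -0.08 over the 10 genes and 0.00 over all tested genes.

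**Figure D1:**
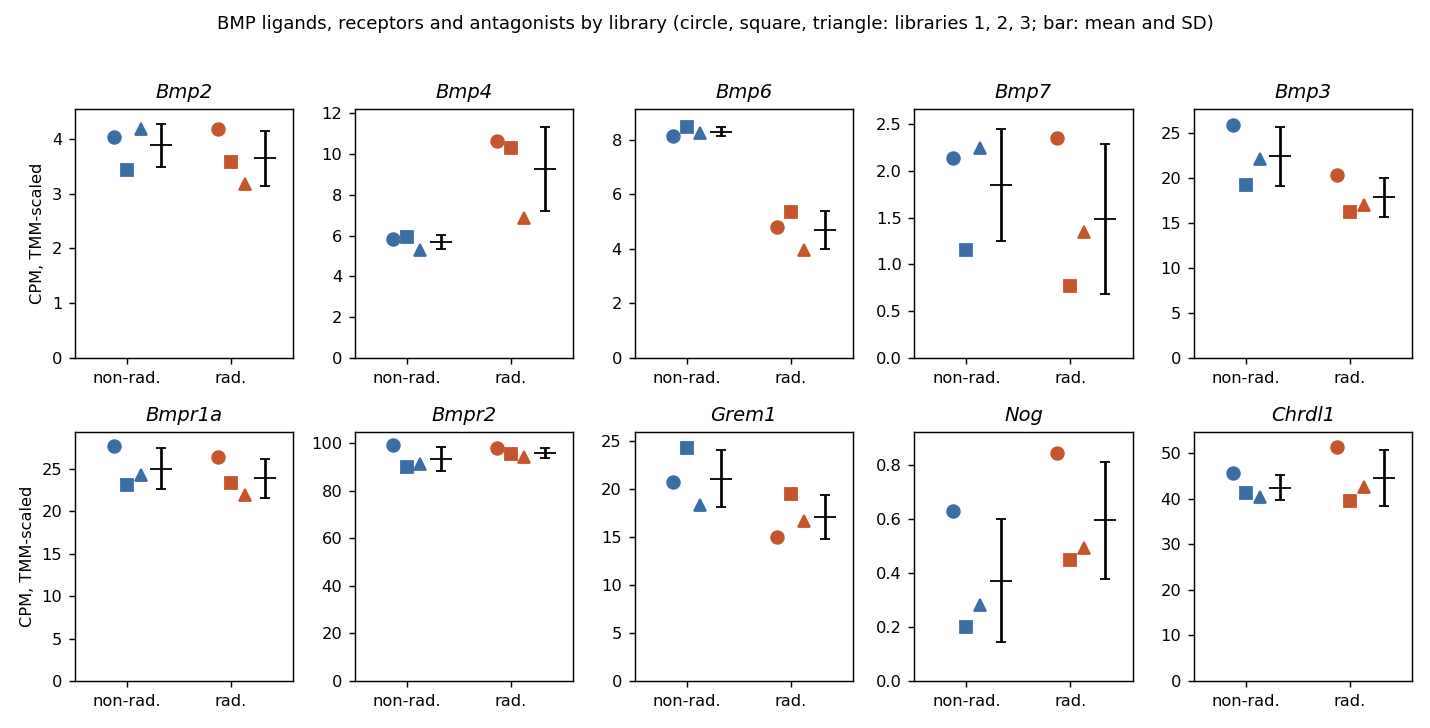
Each panel plots 1 gene, with its TMM-scaled CPM on the vertical axis (from 0) and the non-radiated and radiated groups on the horizontal axis. Points are libraries 1, 2 and 3 and bars are the mean and SD. The groups are apart for Bmp4 (5.31 to 5.95 against 6.88 to 10.6 CPM) and Bmp6 (8.15 to 8.46 against 3.97 to 5.34 CPM) and overlap in the other 8 panels. Of all tested genes, 25.9% had groups that did not overlap.

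The ligands showed both called differences. Bmp4 (ENSMUSG00000021835, chromosome 14, 46383520 to 46390669 as the table gives it, build mm10 per the submitters' processing notes) encodes a ligand of mesoderm and bone formation that has also been linked to the commitment of progenitors to fat cells. It was at 5.84, 5.95 and 5.31 CPM in non-radiated bone and at 10.6, 10.3 and 6.88 CPM in radiated bone. The groups did not overlap, and radiated library 3 lay closest to the non-radiated libraries. The log2 fold change was 0.70 (SE 0.17, 95% interval 0.32 to 1.08, adjusted edgeR p 0.0355). The call was lost in 5 of 6 fits with a library left out, with a log2 fold change of 0.59 to 0.87, and was kept only without radiated library 3 (adjusted edgeR p 0.00408). It was also lost with limma-voom (adjusted p 0.0571). Adipocyte markers, a list of 10 genes, moved with Bmp4: their summed level was 328.6, 304.4 and 303.0 CPM in non-radiated bone and 1120, 1018 and 801.2 CPM in radiated bone, lowest in the same radiated library 3. All 10 adipocyte markers were called higher. Radiated library 3 was also the lowest radiated library for the osteocyte, muscle, marrow stroma, endothelial, megakaryocyte and erythroid marker sums. For osteocyte and endothelial markers the gap to radiated library 2 was small (114.1 against 117.2 and 571.8 against 584.0 CPM). Osteoblast, chondrocyte and osteoclast markers summed lowest in radiated library 2. The part of adipocytes in the Bmp4 difference was not tested.

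Bmp6 (ENSMUSG00000039004, chromosome 13, 38345716 to 38499728) encodes an osteogenic ligand that endothelial cells of the liver use to raise the iron hormone hepcidin. It was at 8.15, 8.46 and 8.24 CPM in non-radiated bone and at 4.81, 5.34 and 3.97 CPM in radiated bone. The non-radiated libraries lay close together, and every radiated library was lower than all of them. Bmp6 fell by 0.81 on the log2 scale (SE 0.13, 95% interval -1.11 to -0.52, adjusted edgeR p 0.00604). The call was kept in each of the 6 fits that left out a library, with log2 fold changes from -0.92 to -0.71. Scaling by library totals alone lost it (log2 fold change -0.62, adjusted edgeR p 0.208). Library totals that left out the rows AY036118 and Gm26917 kept it (log2 fold change -0.78, adjusted edgeR p 0.00611). Megakaryocyte markers moved with Bmp6: all 10 genes of the list were called lower, and their summed level was 1061 to 1132 CPM in non-radiated and 362.5 to 430.0 CPM in radiated libraries. The endothelial list also summed lower, at 753.3 to 834.4 against 571.8 to 616.7 CPM. In it Vwf, which megakaryocytes also express, was at 312.8 to 368.9 against 127.5 to 141.7 CPM. Without Vwf, a sum taken after seeing the data, the list was at 429.3 to 465.5 against 442.2 to 483.9 CPM. With Vwf, 3 of 10 genes were called lower, none was called higher, and the median log2 fold change was -0.02. Besides Vwf these were Tek, with means of 17.0 against 11.2 CPM, and Esam, with 25.1 against 17.1 CPM. Pecam1, Cdh5, Emcn, Egfl7 and Stab2 had higher means in radiated bone and were not called. The part of either cell type in the Bmp6 difference was not tested.

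Because they moved in opposite directions, the ratio of the Bmp4 and Bmp6 levels, each per kilobase of gene length, was taken within each library, where library scaling cancels. This ratio was 0.777, 0.762 and 0.699 in non-radiated bone and 2.39, 2.08 and 1.88 in radiated bone. Every radiated library had a higher ratio than every non-radiated one. Whether Bmp6 or Bmp4 was the more abundant in non-radiated bone was not settled, since it depended on the gene lengths. With the joined exons of GENCODE M21 as lengths, the ratio was 1.24, 1.22 and 1.12 in non-radiated bone. In radiated bone it was then 3.83, 3.34 and 3.01, with Bmp4 the higher in all 6 libraries. The counts were the same in both versions and were not taken again on M21 exons. If reads were counted on the table's shorter Bmp6 model, exons found only in M21 add length but no counts. The M21 ratio would then be raised by construction. The ratio was chosen after both differences were seen and is given without a test.

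The sequences just before the starts of Bmp4 and Bmp6 are shown because these are the genes that moved, and in opposite directions. RefSeq (build GRCm38.p6) gave promoters for 5 of the 10 genes, and the starts used there for Bmp4 and Bmp6 are the gene boundaries of the count table. The windows are the 250 bases before the start, chr14:46390670-46390919 on the minus strand for Bmp4 and chr13:38345466-38345715 on the plus strand for Bmp6, each written 5′ to 3′ with the letters of the GC box (GGGCGG on either strand) in capitals.
Bmp4: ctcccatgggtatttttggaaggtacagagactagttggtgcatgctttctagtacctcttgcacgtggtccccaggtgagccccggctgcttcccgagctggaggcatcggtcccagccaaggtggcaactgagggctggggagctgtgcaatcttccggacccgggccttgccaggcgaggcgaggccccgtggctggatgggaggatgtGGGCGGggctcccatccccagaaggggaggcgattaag
Bmp6: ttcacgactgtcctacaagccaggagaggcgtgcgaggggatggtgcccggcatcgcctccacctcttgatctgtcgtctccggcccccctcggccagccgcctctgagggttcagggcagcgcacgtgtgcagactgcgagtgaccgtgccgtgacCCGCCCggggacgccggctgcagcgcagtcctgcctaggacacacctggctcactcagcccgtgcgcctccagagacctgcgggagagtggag
Bmp4 held 1 GC box, beginning at position -38 from the start, and Bmp6 held 1, beginning at -93. The uncalled Bmpr1a, Bmpr2 and Grem1 held 4, 1 and 3, so all 5 genes with a promoter window held this box. Such a box was found in 32.7% of 32851 RefSeq promoter windows of the same length. Both windows were rich in G and C, at 63.2% for Bmp4 and 68.8% for Bmp6, against a median of 52.4%. The GC-rich SMAD motif GGCGCC was absent from the Bmp4 and Bmp6 windows and found in 9.59% of all windows. Bmpr1a, Bmpr2 and Grem1 each held 1. The p53 half-site, searched on both strands, was absent from the Bmp4 and Bmp6 windows and found in 7.13% of all. Bmpr2 held 1. As neither of these motifs occurred in the Bmp4 and Bmp6 windows, no overlap with their GC boxes was possible. These are matches of letters, and no binding was measured.

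The other 3 ligands were not called. Bmp3 encodes an atypical member that opposes the bone-forming ligands and is made by osteoblasts and osteocytes. It was at 25.8, 19.2 and 22.1 CPM in non-radiated bone and at 20.3, 16.2 and 16.9 CPM in radiated bone. The groups overlapped, since non-radiated library 2 was below radiated library 1. The log2 fold change was -0.33 (SE 0.12, 95% interval -0.61 to -0.05, adjusted edgeR p 0.150). Each radiated library was lower than the non-radiated library of the same number, with log2 ratios of -0.35, -0.25 and -0.38, and with the number as a block Bmp3 became a call (log2 fold change -0.33, adjusted edgeR p 0.0394, where 8.9% of all genes were called). Osteoblast markers were lower in the same libraries, with a summed level of 12367, 8853 and 13431 CPM in non-radiated bone and 8656, 6679 and 7709 CPM in radiated bone. Of that list 3 of 10 genes were called lower and none higher. The part of these cells in the Bmp3 values was not tested.

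Bmp2, the ligand needed for fracture repair, was at 4.03, 3.43 and 4.18 CPM in non-radiated bone and at 4.17, 3.58 and 3.18 CPM in radiated bone. The groups overlapped almost fully, and the 95% interval of the log2 fold change ran from -0.44 to 0.24 (adjusted edgeR p 0.777). Bmp7, an osteogenic ligand also required in the kidney, was at 2.14, 1.16 and 2.24 CPM in non-radiated bone and at 2.35, 0.768 and 1.34 CPM in radiated bone. It was lowest in library 2 of both groups, and its interval was wide, from -1.23 to 0.52 (log2 fold change -0.35, adjusted edgeR p 0.668). With radiated library 1 left out the value was -0.84, and with radiated library 2 left out it was -0.03. Chondrocyte markers were lowest in the same 2 libraries, with a summed level of 384.1 CPM in non-radiated library 2 and 334.4 CPM in radiated library 2, against 477.7 to 853.6 CPM in the other 4 libraries. Within each group, osteoblast and osteoclast markers also summed lowest in library 2. The part of any of these cells in the Bmp7 values was not tested.

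**Figure D2:**
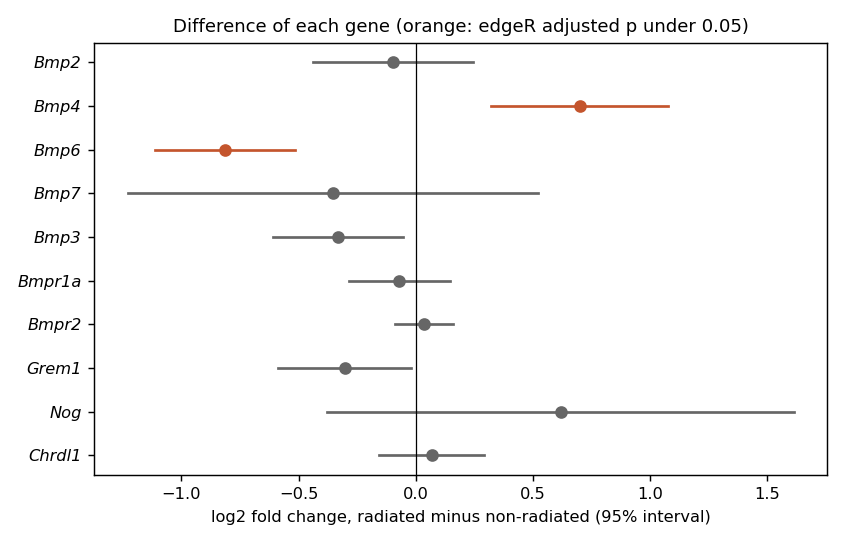
The horizontal axis is the log2 fold change of radiated minus non-radiated bone for each of the 10 genes, with its 95% interval as a line. The Bmp4 interval (0.32 to 1.08) and the Bmp6 interval (-1.11 to -0.52) lie on opposite sides of 0, the Bmpr2 interval is the narrowest (-0.09 to 0.16), and those of Bmp7 and Nog are the widest.

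Neither receptor was called. Bmpr2, the type II receptor that starts the signal, was at 99.3, 89.9 and 91.2 CPM in non-radiated bone and at 98.1, 95.5 and 94.1 CPM in radiated bone. The radiated values lay inside the non-radiated range, and the interval of the log2 fold change was -0.09 to 0.16 (adjusted edgeR p 0.768). Bmpr1a, a type I receptor for Bmp2 and Bmp4, was at 27.7, 23.1 and 24.3 CPM in non-radiated bone and at 26.4, 23.3 and 22.0 CPM in radiated bone. Its interval was -0.29 to 0.15 (adjusted edgeR p 0.745). For both receptors a change as large as that of Bmp4 lay outside the interval.

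No antagonist among the 10 genes was called. Grem1, which encodes gremlin and marks skeletal progenitors of the metaphysis, was at 20.7, 24.3 and 18.3 CPM in non-radiated bone and at 14.98, 19.5 and 16.6 CPM in radiated bone. Within each same-numbered pair the radiated library had the lower value, but the groups overlapped through radiated library 2 and non-radiated library 3 (log2 fold change -0.30, 95% interval -0.59 to -0.02, adjusted edgeR p 0.204, and 0.0791 with the block). Chrdl1, a chordin-like antagonist, was at 45.6, 41.4 and 40.4 CPM in non-radiated bone and at 51.5, 39.5 and 42.6 CPM in radiated bone. The radiated libraries spanned the non-radiated ones, and the interval was -0.16 to 0.29 (adjusted edgeR p 0.759). Nog, which encodes noggin, was read at 23, 5 and 12 counts in non-radiated bone and at 32, 24 and 22 counts in radiated bone. That corresponds to 0.631, 0.200 and 0.283 CPM against 0.845, 0.449 and 0.493 CPM, and at this depth the interval of the log2 fold change ran from -0.38 to 1.62 (adjusted edgeR p 0.480). Its value ran from 0.30 without radiated library 1 to 1.23 without non-radiated library 1. Across same-numbered pairs, 3 of the 10 genes were lower in all 3 pairs, Bmp6, Bmp3 and Grem1, where 19.6% of all tested genes were. Bmp4 and Nog were higher in all 3 pairs, where 22.3% of all tested genes were.

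Levels of different genes were compared as CPM per kilobase of the gene length in the table. In non-radiated bone the order, from high to low, was Bmp3, Chrdl1, Bmpr2, Grem1, Bmpr1a, Bmp6, Bmp4, Bmp2, Bmp7 and Nog, from 7.20 ± 1.06 for Bmp3 to 0.219 ± 0.135 CPM per kilobase for Nog (SD, n = 3). Bmp3 and Chrdl1, Bmpr2 and Grem1, and Bmp7 and Nog were neighbours whose ranges overlapped, and all other neighbours were apart. In radiated bone Bmp4 moved by its mean from the seventh to the fourth place, at 4.16 ± 0.928 against 2.56 ± 0.154 CPM per kilobase in non-radiated bone (SD, n = 3). In radiated library 3 alone Bmp4, at 3.09, was below Grem1, at 4.01, and Bmpr1a, at 3.46 CPM per kilobase. Bmp6 moved from the sixth to the seventh place, at 1.95 ± 0.287 against 3.44 ± 0.0681 CPM per kilobase (SD, n = 3). Chrdl1 then led Bmp3, but their ranges overlapped, as did those of Bmp3 and Bmpr2, Bmp4 and Grem1, Grem1 and Bmpr1a, and Bmp7 and Nog. The table's gene models of Bmp3 and Bmp6, at 3112 and 2410 bases, are shorter than the exons GENCODE M21 joins for them, at 7398 and 3900 bases, while the M21 length of Bmp4 is 2248 bases. Counts were not taken again on M21 exons. The added length may thus carry no counts, which would lower Bmp3 and Bmp6 by construction. With the M21 lengths, chosen after seeing the data, Bmp3 fell to the fifth place in non-radiated bone, at 3.03 ± 0.447 CPM per kilobase, and Chrdl1 led. Bmp6, at 2.12 ± 0.0421, then stood below Bmp4, at 2.54 ± 0.152, in non-radiated bone already, and was seventh in both groups, while Bmp4 moved from the sixth to the third place (SD, n = 3).

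**Figure D3:**
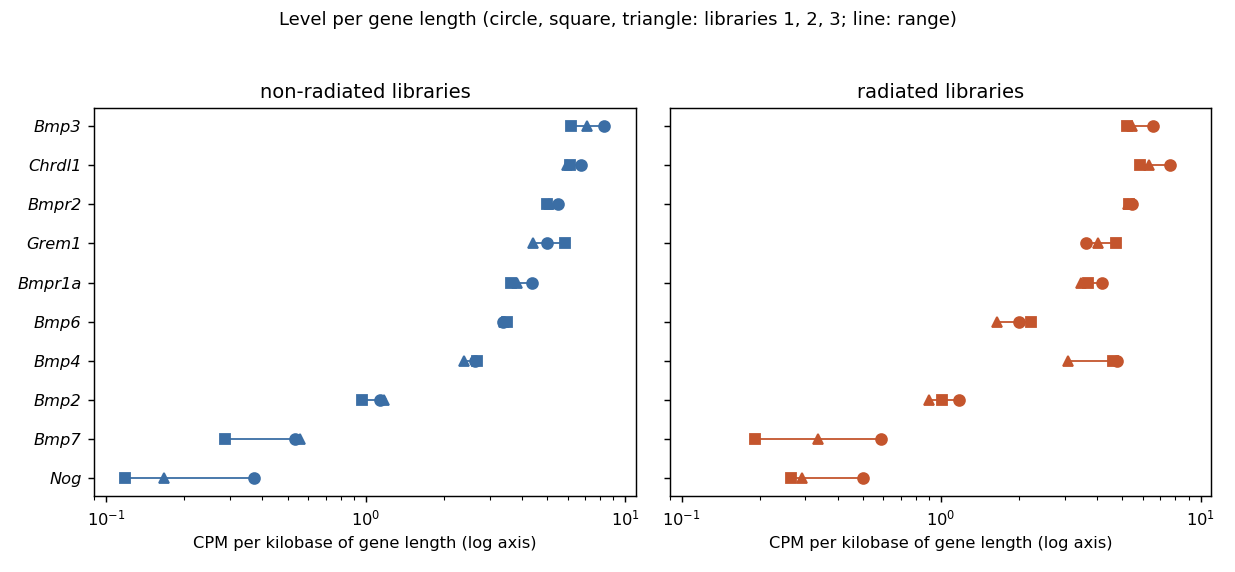
The horizontal log axis is CPM per kilobase of gene length, in non-radiated (left) and radiated (right) libraries, with 1 symbol per library and a line over the range. Genes are in the non-radiated order by the lengths in the table, in which Bmp4 (2.56) stands below Bmp6 (3.44), while on the right Bmp4 (4.16) stands above Bmp6 (1.95). With the same counts over M21 lengths, which may lower Bmp6 by construction, Bmp4 is above Bmp6 in both groups (2.54 against 2.12 on the left).

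The remaining genes of the pathway were followed in 6 lists of 74 genes, all found in the table, of which 60 passed the filter on low counts. Of these 60, 8 rose and 1 fell, against 4.56% and 3.24% of all tested genes, and the median log2 fold change was 0.13. Leaving out radiated library 1 reduced the count of calls to 4, and leaving out radiated library 2 reduced it to 5. Leaving out non-radiated library 2 gave 9 calls, 5 higher and 4 lower.

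Extracellular antagonists and modulators held 4 of the 8 rises. Of 14 tested genes of this list these 4 rose and none fell, 13 of 14 had a positive log2 fold change, and the median was 0.29, where 50.5% of all tested genes were positive. Fst encodes follistatin, which binds activins and, less tightly, some BMPs. It was at 6.01, 4.75 and 6.09 CPM in non-radiated bone and at 16.7, 14.6 and 16.6 CPM in radiated bone. Every radiated library was more than double any non-radiated one (log2 fold change 1.499, SE 0.12, adjusted edgeR p 0.000111). Fstl1, a secreted follistatin-like glycoprotein, was at 83.6, 69.6 and 82.6 CPM in non-radiated bone and at 158, 145 and 133 CPM in radiated bone. The groups were far apart (log2 fold change 0.88, SE 0.09, adjusted edgeR p 0.00043). Both were called in all 15 settings, which are the fit described and 14 alternatives to it.

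Crim1, a membrane protein with chordin-like repeats, was at 18.9, 15.5 and 20.5 CPM in non-radiated bone and at 27.9, 27.7 and 25.0 CPM in radiated bone. It rose by 0.55 on the log2 scale (adjusted edgeR p 0.0139), and only leaving out radiated library 1 ended the call (adjusted p 0.0627). Smoc1, a matrix protein that restrains BMP signalling, was at 6.39, 7.87 and 5.90 CPM in non-radiated bone and at 11.8, 11.6 and 8.45 CPM in radiated bone, with radiated library 3 closest to the non-radiated range, as for Bmp4. Its log2 fold change was 0.66 (adjusted edgeR p 0.0368), a call kept in 2 of the 6 fits that left out a library, those without non-radiated library 2 or radiated library 3. These 4 genes stand beside Grem1, Nog and Chrdl1, of which none was called.

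Among the other ligands 2 of 8 tested genes rose and none fell, with a median of 0.21. Gdf11, a ligand of activin receptors, had 5.13 ± 0.471 CPM in non-radiated and 7.29 ± 0.588 CPM in radiated bone (SD, n = 3), a log2 fold change of 0.50 (adjusted edgeR p 0.0396). Gdf15, a stress hormone that acts through a receptor outside the BMP receptors, had 1.001 ± 0.287 and 1.89 ± 0.0400 CPM (SD, n = 3), a log2 fold change of 0.88 (adjusted edgeR p 0.0439). Each of these calls was kept in 1 of the 6 fits that left out a library, the one that left out radiated library 3 for Gdf11 and the one that left out non-radiated library 3 for Gdf15. The Gdf11 call was also lost with library totals alone (adjusted edgeR p 0.134). It was kept with totals that left out AY036118 and Gm26917 (adjusted edgeR p 0.0314). Bmp10 and Gdf2, circulating ligands that act on endothelium, had no count in any library, and Bmp8a and Bmp8b, close paralogs whose counts are uncertain, were not called.

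Of 11 other receptors and co-receptors tested none was called by the edgeR fit described, 5 had an unadjusted p under 0.05, and the median was 0.19. By DESeq2's Wald test 1 was called, Bambi, by limma-voom none was, and with the replicate block 1 was called, Hjv. Bambi, a decoy receptor, was at 9.13, 7.23 and 9.18 CPM in non-radiated bone and at 7.05, 5.67 and 6.16 CPM in radiated bone (log2 fold change -0.44, adjusted edgeR p 0.0865, DESeq2 adjusted p 0.0309). Hjv, listed under its older symbol Hfe2, encodes the hemojuvelin co-receptor found in skeletal muscle. It was at 0.302, 0.599 and 0.354 CPM in non-radiated bone and at 1.61, 6.52 and 0.448 CPM in radiated bone. The highest value was that of radiated library 2, where muscle markers also summed highest, at 2557 CPM (log2 fold change 2.84, adjusted edgeR p 0.0816, and 0.0174 with the block). Without radiated library 2 the log2 fold change was 1.32 (adjusted edgeR p 0.214), and without radiated library 3 Hjv was called (3.35, adjusted edgeR p 0.00961). It was also called with no filter (adjusted edgeR p 0.00422) and with library totals alone (adjusted edgeR p 2.13e-15), so in 4 of the 15 settings. The part of muscle in these values was not tested.

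Among the proteases that release ligands or cleave chordin, 1 of 5 tested genes rose. Tll2, a tolloid-like protease, was read at 1, 4 and 6 counts in non-radiated bone and at 23, 53 and 32 counts in radiated bone, a log2 fold change of 2.84 (SE 0.47, adjusted edgeR p 0.00672) that rests on few counts. It was highest in radiated library 2, as muscle markers were. In radiated library 3, where those markers summed to 201.8 CPM, inside the non-radiated range, Tll2 was at 0.717 CPM against at most 0.160 CPM in a non-radiated library. The part of muscle in the Tll2 values was not tested. Furin, the main convertase of BMP precursors, was not called. Pcsk5, another convertase, became a call with the block (log2 fold change -0.59, adjusted edgeR p 0.0269, and 0.0986 without the block). It was also called by DESeq2's Wald test (adjusted p 0.0134), and by edgeR with no filter (adjusted p 0.0329) or without non-radiated library 2 (0.0306).

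**Figure D4:**
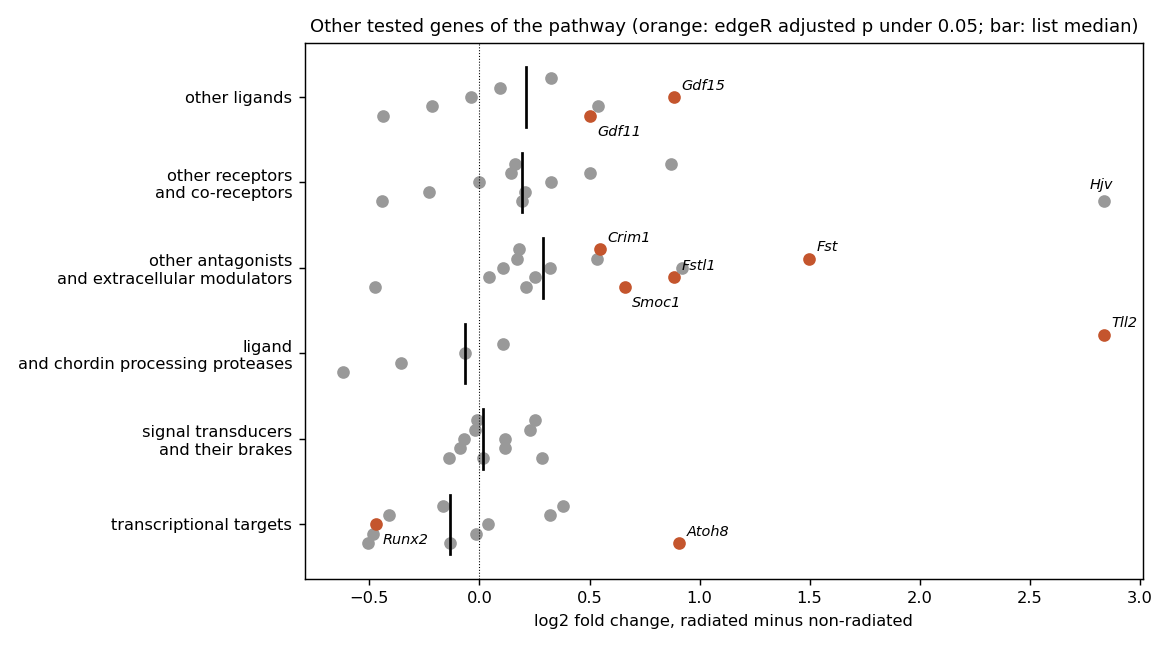
Each point is a tested gene of 1 of the 6 pathway lists, with the log2 fold change of radiated minus non-radiated bone on the horizontal axis and the list on the vertical axis. Points are spread vertically within a list only to be seen, and black bars are list medians. The named orange points are the 9 called genes, 8 of them to the right of 0, and Hjv is named in grey as a gene that was not called.

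None of the 11 signal transducers and their brakes was called by the edgeR fit described, and the median was 0.02. With an unadjusted p under 0.05 there was 1 of them, Smurf1, a ubiquitin ligase for Smads, with a log2 fold change of 0.29 (adjusted edgeR p 0.0603). Of the 11, DESeq2's Wald test called only Smurf1 (adjusted p 0.0302), and limma-voom called none. Smurf1 was called in 5 of the 15 settings, among them 2 fits with a library left out. Smad7, an inhibitory Smad with the next smallest p, had a log2 fold change of 0.23 (95% interval -0.01 to 0.47, adjusted edgeR p 0.260).

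Of 11 tested transcriptional targets 1 rose and 1 fell, and the median was -0.13. Runx2, the transcription factor of osteoblast commitment, fell by 0.47 on the log2 scale (adjusted edgeR p 0.00396), in the same samples in which osteoblast markers summed lower, and their part in it was not tested. Scaling by library totals alone ended this call (log2 fold change -0.29, adjusted edgeR p 0.640). Runx2 was called in 14 of the 15 settings. Atoh8, a basic helix-loop-helix factor, was at 0.576, 0.599 and 0.731 CPM in non-radiated bone and at 1.40, 1.10 and 1.12 CPM in radiated bone. Its log2 fold change was 0.91 (adjusted edgeR p 0.0404), a call lost with the block (0.0596), with DESeq2 (0.107), with limma-voom (0.0576) and in each of the 6 fits that left out a library. Sp7, the factor downstream of Runx2, became a call with the block (log2 fold change -0.49, adjusted edgeR p 0.0117, and 0.0814 without the block). It was also called by DESeq2's Wald test (adjusted p 0.00321), and by edgeR with no filter (adjusted p 0.0119) or without non-radiated library 2 (0.0200).

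The Id genes, inhibitors of differentiation and the usual readout of BMP signalling, were named after their values were seen. None of the 4 was called in any of the 15 settings. Id1 was at 4.31, 4.55 and 5.03 CPM in non-radiated bone and at 5.23, 4.21 and 4.86 CPM in radiated bone, so the groups overlapped (95% interval of the log2 fold change -0.26 to 0.34, adjusted edgeR p 0.905). Id2 had a log2 fold change of -0.16 (adjusted edgeR p 0.340), Id3 of 0.32 (0.165) and Id4 of 0.38 (0.128). For Id4 the groups did not overlap, with 6.17 to 7.39 CPM in non-radiated and 8.19 to 10.5 CPM in radiated libraries, which also held for 25.9% of all tested genes.

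The genes whose log2 CPM over the 6 libraries was most like that of Bmp6 were Gdpd2, Kctd20 and Gad1-ps, with Pearson r of 0.998, 0.998 and 0.997. For Bmp4 they were Npc1, Abcg1 and Rarres2, with r of 0.997, 0.993 and 0.992. Of 15578 genes compared, 638 had an r of at least 0.9 with Bmp6 and 354 with Bmp4. These values describe 6 libraries in 2 groups, and any gene that differs between the groups tends to score high.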

How the data were processed

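Strand-specific mRNA libraries of 6 femur pieces were analysed, per the labels' protocols. The submitters' processing notes name bcl2fastq, STAR 2.5.2b, Subread, featureCounts and the build mm10, with no settings. Annotation, filters and use of strand in counting are not given in the sources used here. The authors deposited raw counts per gene, per the file headers, and RPKM, which was used for no test because its library constant (5.55 to 6.91 times the summed counts) is not explained.

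The test on counts was that of edgeR 4.0.16 (R 4.3.3): filterByExpr (minimum count 10, minimum total 15), TMM scaling, glmQLFit and glmQLFTest with group as the only term, Benjamini-Hochberg over 18757 genes. The SE is the size of the log2 fold change divided by the square root of F, and 95% intervals use the fit's degrees of freedom. The fit was tested on simulated data. Fold changes are relative to the bulk of genes. Labels do not say whether libraries of a group are separate animals, so p-values measure the spread between these libraries, which may be technical. Replicates differed by more than sampling noise (chi-square per degree of freedom 16.6 to 580). These values use raw totals, without TMM and with AY036118 kept. The pairs with non-radiated library 2 gave 580 and 492, and the other pairs 16.6 to 121.

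The labels give both groups the numbers 1 to 3 without saying that a number marks a mouse. Deviations from group means correlated across genes at 0.166, 0.277 and 0.187 for equal numbers, and at -0.170 to -0.008 for unequal ones. Within a group the deviations of a gene cancel out, so these 2 sets of values are not independent. The numbers were taken to pair the libraries. The p-values given ignore this pairing unless the block is named, and the block fit was an alternative. The others were DESeq2 1.42.0 size factors, library totals with and without AY036118 and Gm26917, limma-voom (limma 3.58.1), the Wald test of DESeq2, no filter, a minimum mean of 1 CPM and leaving out each library, which with the first fit make 15 settings.

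The members, lists and tests were chosen with earlier results of these data known. Named were the 10 members, in each pathway list the called genes or else the 2 with the smallest p, and for the 2 members with the smallest p the 3 genes most like them; genes outside this rule (the Id genes, Sp7, Pcsk5, Furin, Bmp8a, Bmp8b, Bmp10 and Gdf2) were named after their values were seen. Marker lists also covered osteocytes, marrow stroma, erythroid cells and osteoclasts. Their summed levels were 147.1 to 215.2 against 114.1 to 153.8, 1925 to 2043 against 1741 to 1994, 19360 to 22361 against 21550 to 24860, and 1810 to 2285 against 1681 to 1913 CPM in non-radiated against radiated libraries. The lower osteoclast sum came with Itgb3, called lower at means of 637.1 against 299.4 CPM. In the same list Atp6v0d2 was called higher, at 59.0 against 74.5 CPM, and the median log2 fold change was 0.09. Of the named genes, Bmp4, Bmpr1a, Bmpr2, Crim1, Fstl1, Id4, Runx2, Smoc1 and Smurf1 overlap another gene in the table; that gene had at most 143 counts in a library for each but Runx2, where Supt3 had up to 699. Levels per length with M21 exon lengths and the endothelial sum without Vwf were added after seeing the data.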

Additional observations from a re-analysis of the deposited data

How the results depend on the processing

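Of the 10 genes, 2 were called, and 1 with library totals alone (Bmp4), 1 with limma-voom (Bmp6) and 1 to 2 when a library was left out. Calls ran from 4 to 10 among the pathway genes and from 764 to 1376 among all genes when a library was left out, against 9 and 1463 with all 6. Bmp4 had a log2 fold change of 0.68 with limma-voom (call lost), 0.67 with the replicate block and 0.59 to 0.87 with a library left out. Bmp6 was at -0.62 under library totals (call lost) and at -0.78 under totals without AY036118 and Gm26917 (call kept). It was at -0.83 with the block and -0.92 to -0.71 with a library left out. Bmp3 was at -0.33 with the block (call gained). Bmp3 was the only one of the 10 genes whose call the block changed, and among named pathway genes it changed those of Hjv, Pcsk5, Sp7 and Atoh8. Uncalled differences near 0 turned in sign: under library totals Bmp2 (0.078), Bmpr1a (0.11) and Id2 (0.040), and with a library left out Bmpr1a (-0.15 to 0.0080), Bmpr2 (-0.0038 to 0.081), Chrdl1 (-0.048 to 0.15) and Id1 (-0.031 to 0.12). Nog, Tll2 and Atoh8 have no value at a mean of at least 1 CPM, since they fall under it. The causes were not tested. Nog and Tll2 rest on few counts, from 5 to 32 and from 1 to 53 per library. Gene lengths of GENCODE M21, chosen after seeing the data and applied to unchanged counts, moved the mean Bmp4 to Bmp6 ratio per length in non-radiated bone from 0.746 to 1.19.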
